A study of Mus musculus with 24 samples.

Results

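The comparison described here is sleep restriction against control at zeitgeber time 19 (ZT19, 19 h after lights on, in the dark phase when mice are mostly awake), in the mediobasal hypothalamus of mice. It rests on 6 of the 24 arrays of the study, the 3 labelled TSR and the 3 labelled CON at ZT19, chosen by their labels, and differences are TSR minus CON. For timed sleep restriction (TSR) mice were handled gently to prevent sleep between ZT0 and ZT6. This ran for 5 days, was paused for 2 days with free sleep and was then repeated for 5 days. CON mice were left undisturbed, and all animals carry the strain label C57BL76J. The other 18 arrays hold the same groups at ZT1, ZT7 and ZT13, with 3 arrays each and, by the description of the series, 3 mice per time and condition. The sources used here do not give sex, age or the time between the last restriction and tissue collection. The labels do not tie an array to an animal, so that p-values measure only the spread between these samples, which may be technical. They do not say how the tissue was cut out or whether animals were pooled.

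The mediobasal hypothalamus holds the arcuate and ventromedial nuclei, which read signals of energy stores and set feeding, body weight and pituitary hormone release. Tanycytes, glia that line the floor of the third ventricle, carry hormones and nutrients between blood, cerebrospinal fluid and these neurons. Next to the region lie the suprachiasmatic nucleus, which sets daily rhythms, and, further away, the basal forebrain, striatum and thalamus. Restricting sleep in the usual rest phase shifts feeding and activity, and the clock genes of peripheral and brain tissue follow both light and food.

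The control group did not behave as 3 like arrays. The spread of the log2 values within an array (interquartile range) was 3.0 in CON replicate 1 and 3.29, 3.13 and 3.08 in TSR replicates 1 to 3, but 2.12 and 2.14 in CON replicates 2 and 3. The latter pair, called narrow below, had rank correlations of 0.835 and 0.843 with the arrays of usual spread, which correlated with each other at 0.977 to 0.986. Highly expressed genes read lower in the narrow arrays and weakly expressed genes higher. In genes of the highest mean level (the top 25%), the median TSR value lay 0.11 above CON replicate 1 and 1.5 above the mean of CON replicates 2 and 3. TSR replicate 3 at ZT1 and TSR replicate 2 at ZT13 were narrow too. Across genes, the gap between the narrow and the usual control arrays at ZT19 correlated with the mean gap at those other times at Pearson r = 0.919, a description over genes that are not independent. Of 12 measured markers of the mediobasal hypothalamus 10 passed the filter on low values, Pomc and Nr5a1 being the exceptions. For the genes described, the levels in CON replicate 1 and in the narrow pair are therefore given apart, and 3 fits are set side by side. The first uses all 24 arrays, the second adds narrow against usual spread as a block, and the third leaves out the 4 narrow arrays and has 1 control array at ZT19. In the block and 20-array fits the call leans on CON replicate 1, so that the deviation of this single sample and the effect of sleep restriction cannot be told apart.

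Of 19938 genes measured, 11963 passed the filter on low values and were tested with limma, and an adjusted p under 0.05 was called. The 24-array fit called 6625 genes (55.4%), of which 5282 were higher (44.2%) and 1343 lower (11.2%) in TSR, with a median difference of 0.59 over all genes tested. This count hung on single arrays. All but 2 of the 6625 adjusted p-values lay between 0.015 and 0.05, and without CON replicate 2, CON replicate 3, TSR replicate 1 or TSR replicate 2 the fit called 1 gene, Alb, in each case. Without TSR replicate 3 it called 3305, and without CON replicate 1 it called 9343. The block fit called 2005 genes (16.8%; 1488 higher and 517 lower) and the 20-array fit 2947 (24.6%; 2102 higher and 845 lower), with median differences of 0.05 and 0.08. Both of these fits called 1104 genes higher (9.23%) and 351 lower (2.93%), 12.2% in all, and 1221 of these 1455 also passed with the same sign in the 24-array fit. With misplaced decimal points put back, the 3 TSR values lay on one side of the 3 CON values in 6790 of 11956 genes (56.8%). In 5694 (47.6%) they did so both before and after a further quantile normalization. After that normalization both fits called 1774 genes (1158 higher and 616 lower) and the 20-array fit 3495 (2035 higher and 1460 lower), a larger share of them lower, and with arrays scaled to one median absolute deviation the groups did not overlap in 5509 genes (3633 higher and 1876 lower). Genes that passed both fits and whose groups did not overlap in either scaling numbered 1077 higher (9%) and 135 lower (1.13%). Below, a gene is said to have risen or fallen where both the block and the 20-array fit called it, and pairs of differences are given in that order, with ± for the moderated standard error of a difference. Of the 1455 genes, 580 kept their call in both fits without any 1 of the other 5 arrays at ZT19. The count in both fits was 661 without TSR replicate 1 and lay between that and 1621 over these leave-outs. Where a gene named below lost its call without an array, the array is given, in most cases with the largest resulting adjusted p of the 2 fits. Leave-outs were not looked up for Rpph1, Rmrp, Magel2, Dlk1 and Dlx2, so it is not known whether their calls held.

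**Figure D1:**
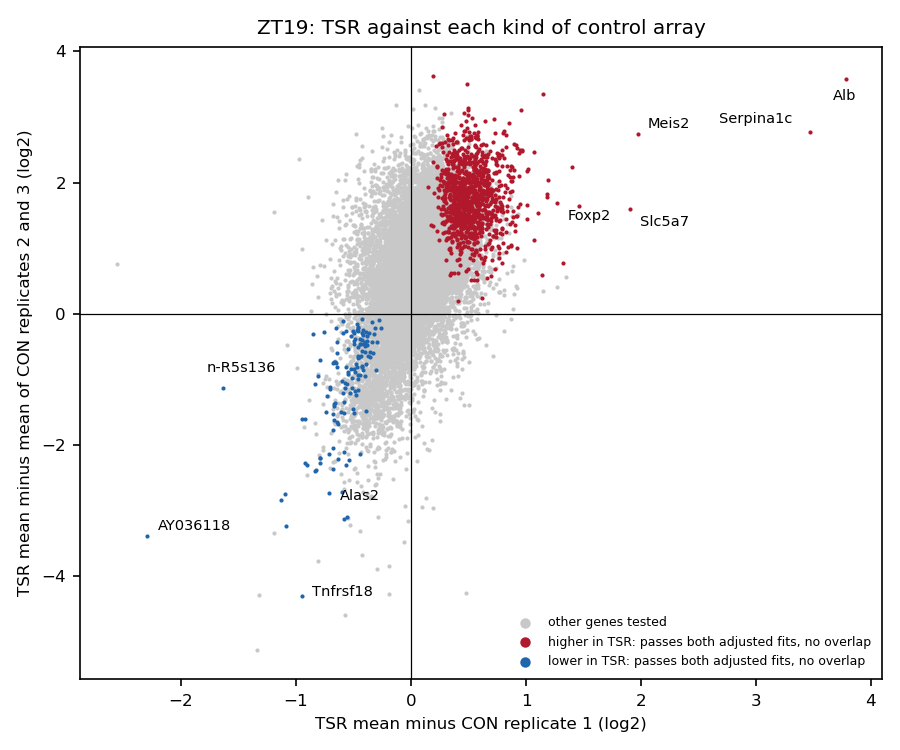
Each point is 1 of the genes tested, with the TSR mean minus CON replicate 1 on the x axis and the TSR mean minus the mean of the narrow CON replicates 2 and 3 on the y axis, both in log2 units. Red and blue points mark the 1077 higher and 135 lower genes that passed the block and 20-array fits without overlap between groups. The cloud is stretched along the y axis, and Alb, Serpina1c and Meis2 stand out against both kinds of control array.

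In both fits Alb and Serpina1c, genes of plasma proteins made by the liver, had the largest rises. Alb encodes albumin, the main protein of blood plasma. Its log2 levels were 4.51 in CON replicate 1, 4.17 and 5.24 in CON replicates 2 and 3, and 8.30, 8.43 and 8.14 in TSR replicates 1 to 3. All 3 TSR arrays lay far above every control array, narrow or not. The difference was 2.87 ± 0.37 with the block (adjusted p = 0.000118) and 3.78 ± 0.19 in the 20-array fit (adjusted p = 1.62e-10), and 3.65 in the 24-array fit (adjusted p = 0.00209). Serpina1c encodes a form of alpha-1-antitrypsin, a protease inhibitor of plasma, and belongs to a family of near-identical copies that the array may not separate. Its levels were 3.66 in CON replicate 1, 4.13 and 4.58 in CON replicates 2 and 3, and 7.65, 7.02 and 6.72 in TSR replicates 1 to 3, again without overlap. The difference was 2.22 ± 0.56 with the block (adjusted p = 0.0108) and 3.47 ± 0.46 in the 20-array fit (adjusted p = 6.6e-05). Apoa1, the main protein of high-density lipoprotein, lay just above the narrow controls, with 6.01, 6.77 and 6.99 in CON and 7.24, 7.47 and 7.14 in TSR. Its difference was 0.69 ± 0.31 with the block (adjusted p = 0.122) and 1.27 ± 0.21 in the 20-array fit (adjusted p = 0.000383), so that it passed in 1 of these fits. With 24 arrays its difference had an adjusted p of 0.0534, and of 0.0473 with the replicate number as a block, both from limma. Ttr, which carries thyroid hormone and retinol-binding protein and is made in liver and choroid plexus, rose from a mean of 5.84 ± 0.48 (SD, n = 3) to 6.79 ± 0.10 (SD, n = 3), with differences of 0.83 and 1.32. Calls were lost for Serpina1c without TSR replicate 1 (up to 0.0531) and Ttr without TSR replicate 1 (up to 0.065). Of the 9 liver and plasma genes tested, of 20 measured, 2 rose, Alb and Serpina1c, beside 9.23% of all genes. The medians were 0.27 and 0.40. The mean level of 8 liver and plasma markers, Alb and Serpina1c among them, was 5.40, 5.77 and 5.87 in CON and 7.0, 6.88 and 6.67 in TSR, without overlap. Of these markers Fgb, Fgg and Ahsg lay under the filter, and in each of them the groups overlapped. Of the 6 choroid plexus markers, Ttr among them, 4 lay under the filter, and the mean of all 6 was 5.59, 5.88 and 5.65 in CON and 5.65, 5.78 and 5.74 in TSR, which overlapped. Alb and Serpina1c were not steady at other times, where the 20-array fit called 10.1% of all genes at ZT1, 26.7% at ZT7 and 45.9% at ZT13. It called both higher in TSR at ZT1, by 4.17 and 4.79, higher at ZT13, by 1.10 and 1.21, and lower at ZT7, with differences of -0.61 and -1.21. The difference thus had the direction of ZT19 at ZT1 and ZT13 and the opposite one at ZT7. The part of liver or blood RNA in these levels was not tested.

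The starts of both genes share a short motif. The 250 bases before the transcription start are given from RefSeq on build GRCm38.p6, for Alb at chr5:90460620-90460869 on the plus strand and for Serpina1c at chr12:103904951-103905200 on the minus strand. They are shown since both genes rose at ZT19 and both are known from the liver. Capitals mark GTTAAT, a half-site of the hepatocyte nuclear factor HNF1, 32 bases before the start in Alb and 27 in Serpina1c.
Alb: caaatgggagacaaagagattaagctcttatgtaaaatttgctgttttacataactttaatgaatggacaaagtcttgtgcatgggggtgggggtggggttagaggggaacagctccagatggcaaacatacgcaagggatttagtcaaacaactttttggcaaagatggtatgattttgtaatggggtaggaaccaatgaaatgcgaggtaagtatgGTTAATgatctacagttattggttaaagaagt
Serpina1c: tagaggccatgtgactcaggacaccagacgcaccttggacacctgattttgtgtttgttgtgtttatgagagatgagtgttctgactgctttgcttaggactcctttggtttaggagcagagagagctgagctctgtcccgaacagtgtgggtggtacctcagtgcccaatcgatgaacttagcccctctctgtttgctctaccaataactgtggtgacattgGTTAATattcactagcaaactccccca
GTTAAT or its reverse complement was in 3 of the 6 matched promoters of the 9 liver and plasma genes tested, and in 6.43% of all 32851 windows of 250 bases. Among the liver and plasma genes the motif was also in the promoter of Vtn. A match describes these letters and is no measure of binding.

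Meis2 had the next largest rise in both fits. Meis2, a homeobox transcription factor of the striatum and its precursors, read 6.58 in CON replicate 1, 5.82 and 5.81 in CON replicates 2 and 3, and 8.63, 8.54 and 8.49 in TSR replicates 1 to 3. The TSR arrays lay close together and far above all controls. The difference was 1.52 ± 0.17 with the block (adjusted p = 2.09e-05) and 1.97 ± 0.13 in the 20-array fit (adjusted p = 1.01e-08), and 2.48 in the 24-array fit (adjusted p = 0.0197). Slc5a7, the choline transporter of cholinergic neurons, read 5.46 in CON replicate 1, 5.91 and 5.63 in CON replicates 2 and 3, and 7.48, 7.23 and 7.38 in TSR replicates 1 to 3, also without overlap. Its difference was 1.09 ± 0.34 with the block (adjusted p = 0.0338) and 1.90 ± 0.16 in the 20-array fit (adjusted p = 3.18e-07), and the call was lost for Slc5a7 without any 1 of the 3 TSR arrays (up to 0.0992). Arpp21, a cyclic-AMP-regulated phosphoprotein rich in the striatum, had 6.82, 6.61 and 6.66 in CON and 8.38, 8.19 and 8.28 in TSR, and its differences were 1.04 and 1.46. Foxp2, a transcription factor of striatum, thalamus and deep cortex, had 6.41, 5.98 and 6.01 in CON and 7.71, 7.66 and 7.66 in TSR. Its difference was 1.07 ± 0.15 with the block (adjusted p = 0.000181) and 1.27 ± 0.11 in the 20-array fit (adjusted p = 5.36e-07). Pcsk1, a convertase that cleaves peptide hormone precursors, rose by 0.91 and 1.40, and Kcng3, a modifying subunit of potassium channels, by 0.77 and 1.19. Lix1 and Ano3 rose by 1.04 and 1.19 and by 1.05 and 1.15. Arpp21, Pcsk1, Kcng3, Lix1 and Ano3 stand on none of the gene lists used here. With only the 6 arrays of ZT19 in the fit, 4 genes passed in all, namely Alb, Meis2, Serpina1c and Slc5a7.

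**Figure D2:**
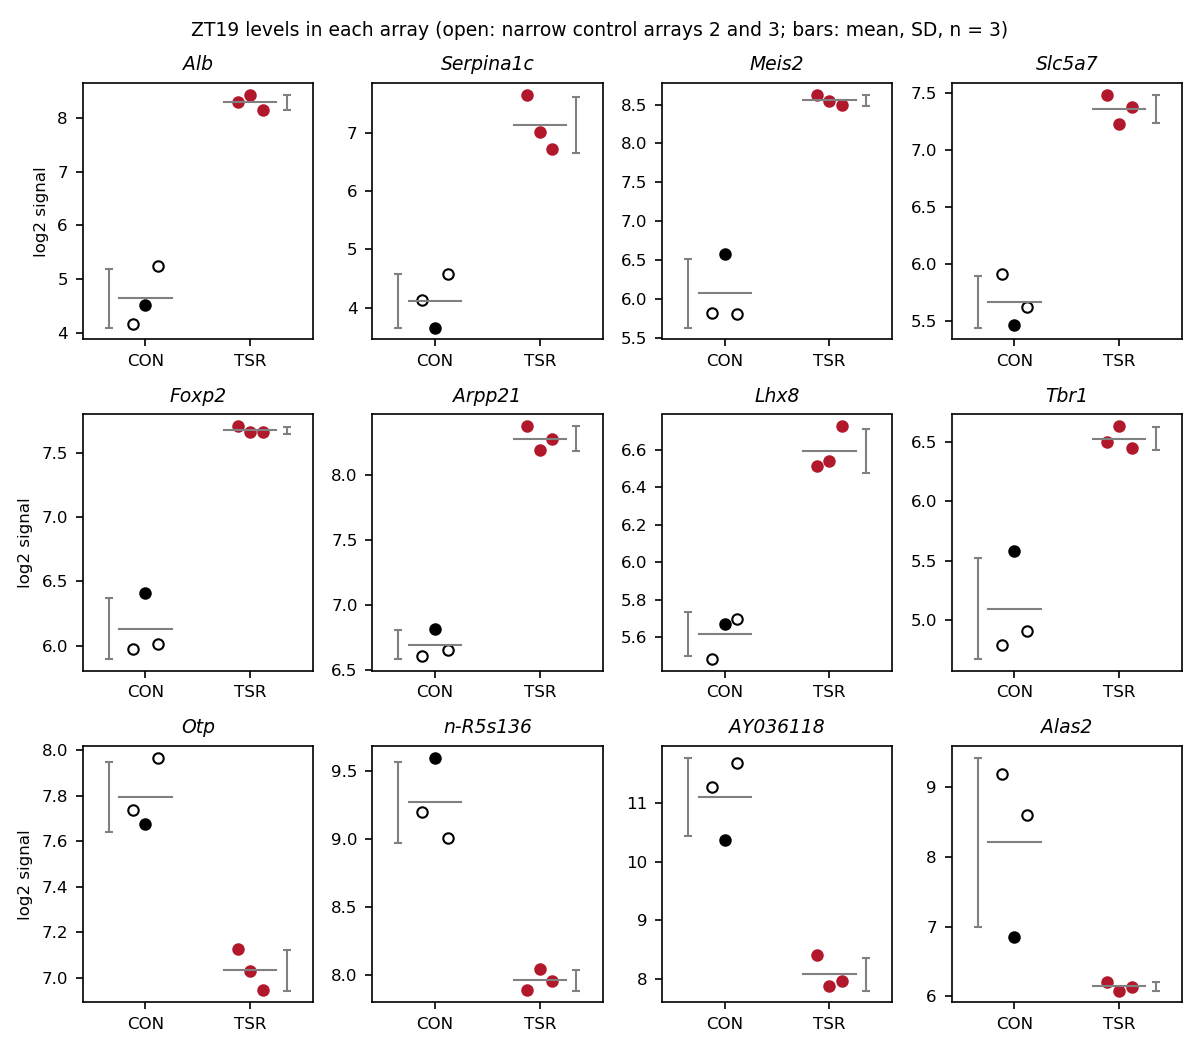
Log2 signal of 12 genes in each array at ZT19, with CON left and TSR right in each panel; filled black points are CON replicate 1, open points the narrow CON replicates 2 and 3, and red points TSR. Grey lines give the mean and the SD of the 3 arrays. In all 12 panels the TSR points lie on one side of the control points, above them in the first 8 and below them in Otp, n-R5s136, AY036118 and Alas2.

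Of the 38 lists, that of cortex and thalamus had the highest share of genes that rose. Of its 11 genes tested, 6 rose and 1 fell, beside 9.23% and 2.93% of all genes. The medians were 0.57 and 0.40 against 0.05 and 0.08 over all genes. No test compared the lists. Slc17a7, which loads glutamate into vesicles in cortical neurons, read 5.49, 6.02 and 6.05 in CON and 6.63, 6.56 and 6.71 in TSR, and its differences were 0.70 and 1.14. Its cousin Slc17a6, the form most used in thalamus and hypothalamus, rose by 0.76 and 0.58. Tbr1, a transcription factor of cortical projection neurons, read 5.58, 4.79 and 4.91 in CON and 6.50, 6.63 and 6.45 in TSR and rose by 0.67 and 0.94. Tcf7l2, which acts in Wnt signalling and marks thalamic neurons, rose by 0.74 and 0.90. Camk2a, a kinase of excitatory synapses, fell, with differences of -0.39 and -0.65, although the sign turned in the 24-array fit, to 1.02 (adjusted p = 0.128). Single arrays mattered for Slc17a7 without any 1 of the 3 TSR arrays (up to 0.0819), Rorb without TSR replicate 2 (up to 0.0526) and Camk2a without any 1 of the 3 TSR arrays (up to 0.09). The mean level of the 5 measured markers of cortex and thalamus was 5.62, 5.67 and 5.44 in CON and 6.34, 6.28 and 6.39 in TSR, so that every TSR array exceeded every control array. The corresponding mean of 12 mediobasal hypothalamic markers was 7.30, 6.98 and 6.87 in CON and 6.96, 6.96 and 6.99 in TSR, which overlapped. The part of tissue from neighbouring regions in these differences was not tested, and in whole tissue more cells of a type and more RNA per cell cannot be told apart.

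Of the 12 striatal and forebrain genes tested, 4 rose, beside 9.23% of all genes, and no test compared these shares. The mean of 3 measured striatal markers was 7.06, 7.04 and 7.12 in CON and 7.41, 7.38 and 7.40 in TSR. Drd1, the dopamine receptor of the direct striatal pathway, read 6.38 in CON replicate 1, 7.39 and 6.94 in CON replicates 2 and 3, and 7.68, 7.68 and 7.80 in TSR replicates 1 to 3. The TSR arrays lay well above CON replicate 1 and more closely above the narrow controls. Its difference was 1.11 ± 0.17 with the block (adjusted p = 0.000271) and 1.34 ± 0.15 in the 20-array fit (adjusted p = 1.21e-05). Drd3, another dopamine receptor, had 5.63, 6.28 and 6.60 in CON and 6.68, 6.82 and 6.85 in TSR and differences of 0.65 and 1.15. The groups of both receptors overlapped once the arrays were quantile normalized. Penk, the precursor of enkephalins, rose by 0.45 and 0.47, and the call of Drd3 without any 1 of the 3 TSR arrays (up to 0.0693) was lost. Among 8 genes of forebrain cholinergic neurons, 2 rose, Slc5a7 and Lhx8. Lhx8, a transcription factor needed for these neurons, read 5.67 in CON replicate 1, 5.48 and 5.70 in CON replicates 2 and 3, and 6.51, 6.54 and 6.72 in TSR replicates 1 to 3. Its difference was 0.69 ± 0.17 with the block (adjusted p = 0.00959) and 0.92 ± 0.17 in the 20-array fit (adjusted p = 0.000896). Chrm2, a muscarinic receptor, had differences of 0.40 and 0.53 and passed in the 20-array fit. In the 20-array fit the differences of Slc5a7 at ZT1, ZT7 and ZT13 were 0.27, 3.16 and 1.85, and those of Lhx8 0.48, 1.59 and 0.60. The departure of ZT19 from the other times did not pass for either gene in the block or the 20-array fit.

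**Figure D3:**
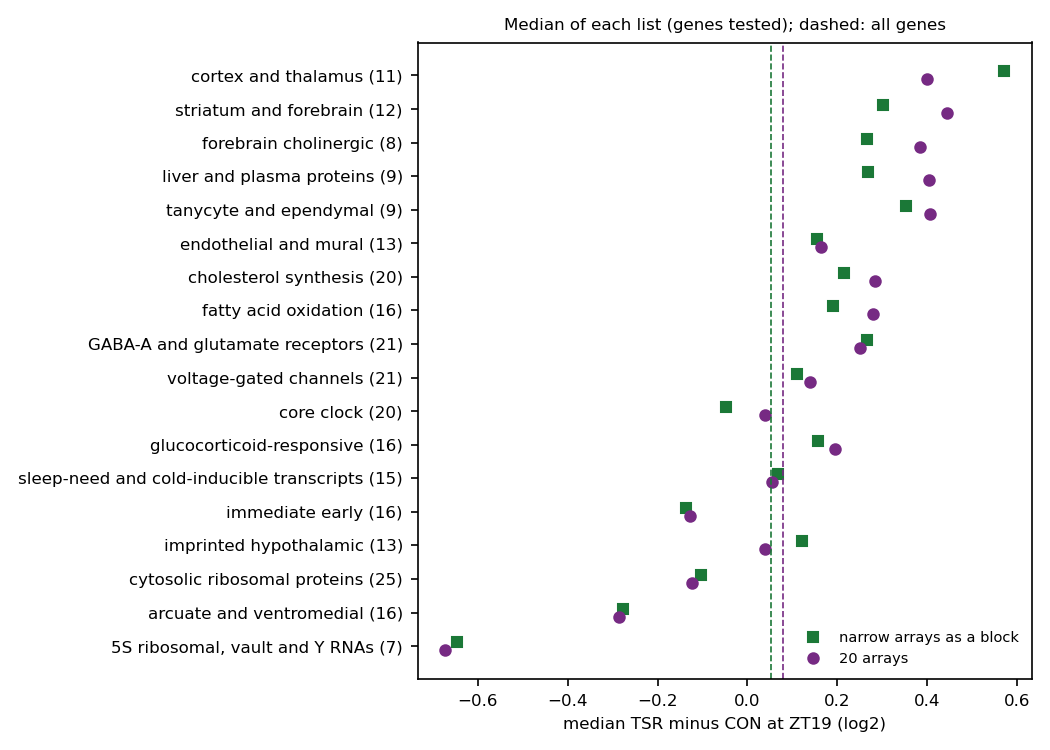
Median TSR minus CON difference at ZT19, in log2 units, of 18 gene lists with the number of genes tested in brackets; squares are the block fit and circles the 20-array fit. Dashed lines are the medians of all genes tested, 0.05 and 0.08. The list of cortex and thalamus lies at 0.57 and 0.40, and the list of 5S ribosomal, vault and Y RNAs at -0.65 and -0.67.

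Of 16 arcuate and ventromedial genes tested, 1 rose and 3 fell, beside 9.23% and 2.93% of all genes, and no test compared these shares. The medians were -0.28 and -0.29. Counting only genes whose groups did not overlap in either scaling, 1 rose and 1 fell, beside 9% and 1.13% of all genes. Otp, a homeobox factor that specifies neuroendocrine hypothalamic neurons, read 7.68 in CON replicate 1, 7.73 and 7.97 in CON replicates 2 and 3, and 7.12, 7.03 and 6.94 in TSR replicates 1 to 3. All TSR values lay below all controls, and the difference was -0.44 ± 0.14 with the block (adjusted p = 0.0301) and -0.64 ± 0.11 in the 20-array fit (adjusted p = 0.000847). Tac2, the neurokinin B precursor of arcuate neurons that drive reproductive hormone release, read 9.15 in CON replicate 1, 6.51 and 6.45 in CON replicates 2 and 3, and 8.41, 8.25 and 8.10 in TSR replicates 1 to 3. The TSR values lay between CON replicate 1 and the narrow controls, so the sign depended on the control array. The difference was -0.53 ± 0.18 with the block (adjusted p = 0.0449) and -0.90 ± 0.18 in the 20-array fit (adjusted p = 0.00175), but 0.88 in the 24-array fit (adjusted p = 0.184). Sst, the precursor of somatostatin, and Trh, the precursor of thyrotropin-releasing hormone, had the same pattern, in that TSR lay below CON replicate 1 and above the narrow controls. Sst differed by -0.34 and -0.22 and Trh by -0.44 and -0.34, both called, while the 24-array fit gave 0.23 (adjusted p = 0.449) and 0.81 (adjusted p = 0.17). Calls of these genes were lost for Otp without any 1 of the 3 TSR arrays (up to 0.0787), Tac2 without any 1 of the 3 TSR arrays (up to 0.12), Sst without TSR replicate 2 (up to 0.0509) and Trh without any 1 of the 3 TSR arrays (up to 0.0907). In all, 154 of the 351 genes that fell had a positive sign in the 24-array fit. Pdyn, the precursor of dynorphins, was the arcuate list member that rose, reading 6.41, 6.12 and 5.92 in CON and 7.10, 6.91 and 6.91 in TSR with differences of 0.66 and 0.56. Ntng1, a netrin-G of thalamic axons that stood in the paraventricular list, rose by 0.67 and 0.58.

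The peptides Npy, Cartpt and Gal gave no call in the block fit. Npy, which drives feeding, read 6.97, 6.88 and 6.48 in CON and 6.53, 7.0 and 7.0 in TSR, and the groups overlapped. Its difference was -0.04 ± 0.20 with the block (adjusted p = 0.897) and -0.12 ± 0.23 in the 20-array fit (adjusted p = 0.708). Cartpt, which restrains feeding, differed by -0.34 and -0.26 without a call. Gal, the galanin precursor, differed by -0.27 and -0.54 and passed in the 20-array fit. Pomc, Hcrt and Pmch lay under the filter on low values and were not tested. Pomc read 5.56, 6.59 and 6.64 in CON and 5.52, 5.33 and 5.47 in TSR, and Hcrt, the orexin precursor of the lateral hypothalamus, 5.78, 6.72 and 6.31 in CON and 5.29, 5.19 and 5.76 in TSR. In both genes all TSR values lay below CON replicate 1 and further below the narrow arrays. Of 18 receptors and sensors of energy state tested, 2 rose, a share near the 9.23% of all genes. The insulin receptor gene Insr rose by 0.40 and 0.41, and Nucb2, the precursor of nesfatin, which restrains feeding, by 0.58 and 0.58. Leaving out an array cost the call of Insr without CON replicate 2 or any 1 of the 3 TSR arrays (up to 0.0852) and Nucb2 without TSR replicate 1 (up to 0.057). Crh, which starts the hormonal stress response, lay under the filter at 4.58, 3.82 and 4.06 in CON and 5.56, 5.25 and 5.29 in TSR, with all TSR values above all controls and no test.

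In the molecular clock Clock, Rora and Rorb rose at ZT19, Tef fell, and no Per or Cry gene passed in the block or the 20-array fit. Clock and its partner Arntl switch on Per, Cry and the D-box factors, which feed back on them, while Rora and Rorb drive Arntl and the Nr1d genes repress it. Clock read 9.42 in CON replicate 1, 7.34 and 7.71 in CON replicates 2 and 3, and 9.97, 9.85 and 9.86 in TSR replicates 1 to 3. The TSR arrays exceeded CON replicate 1 and, by more, the narrow controls. Its difference was 0.60 ± 0.12 with the block (adjusted p = 0.00281) and 0.47 ± 0.12 in the 20-array fit (adjusted p = 0.00877). Rora rose by 0.31 and 0.48 and Rorb, which also marks cortex and thalamus, by 0.57 and 0.40. Nr1d2 differed by 0.47 and 0.28 and passed with the block, and Bhlhe40, a repressor of Clock targets, by 0.38 and 0.42 and passed in the 20-array fit. Tef, a D-box factor under clock control, fell, with differences of -0.33 and -0.33, and turned sign to 0.54 in the 24-array fit (adjusted p = 0.191). Dbp, another such factor, read 8.56, 7.43 and 7.56 in CON and 8.26, 8.21 and 8.12 in TSR, with differences of -0.04 and -0.36, and was called in the 20-array fit. Per1 and Per2 differed by -0.25 and -0.12 and by -0.26 and -0.14, Nr1d1 by -0.07 and 0.04 and Arntl by 0.17 and 0.21, and none of these passed in either fit. Of 20 clock genes tested, 3 rose and 1 fell, beside 9.23% and 2.93% of all genes, and no test compared these shares. The medians were -0.05 and 0.04, against 0.05 and 0.08 over all genes. The call was sensitive to single arrays for Rora without TSR replicate 1 or 2 (up to 0.12), Rorb without TSR replicate 2 (up to 0.0526) and Tef without TSR replicate 2 or 3 (up to 0.0673).

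**Figure D4:**
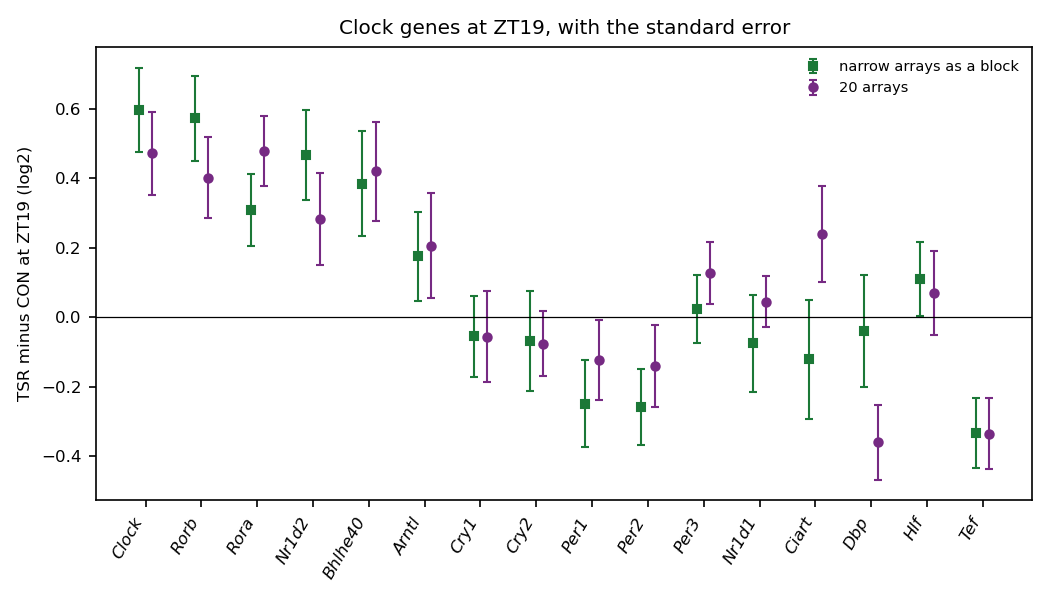
TSR minus CON difference at ZT19 of 16 clock genes, in log2 units, with the moderated standard error; squares are the block fit and circles the 20-array fit. Clock, Rorb and Rora lie above 0 and Tef below it in both fits, while Per1, Per2, Cry1 and Cry2 lie slightly below 0 without passing.

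Of the signalling genes of the suprachiasmatic nucleus, Prokr2, the receptor for prokineticin 2, an output signal of that nucleus, read 7.64 in CON replicate 1, 7.08 and 7.15 in CON replicates 2 and 3, and 8.06, 8.25 and 8.10 in TSR replicates 1 to 3. Its difference was 0.45 ± 0.14 with the block (adjusted p = 0.0311) and 0.49 ± 0.17 in the 20-array fit (adjusted p = 0.0366). Vipr2, the receptor for the peptide that keeps suprachiasmatic neurons in step, differed by 0.53 and 0.33 and passed with the block. All 3 TSR values of Prokr2 lay above all controls. Avp, the vasopressin precursor, differed by 0.20 and 0.47 and passed in the 20-array fit. Of 14 genes of the list, 2 rose, beside 9.23% of all genes. These 2 were Prokr2 and Rora, the latter also in the clock list. The call was lost for Prokr2 without TSR replicate 1 or 2 (up to 0.0976).

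Among 13 genes of arousal and sleep tested, 3 rose and 2 fell, beside 9.23% and 2.93% of all genes, and no test compared these shares. The 2 orexin receptors had opposite signs. Hcrtr1, which binds orexin A, read 7.07 in CON replicate 1, 7.01 and 6.88 in CON replicates 2 and 3, and 6.77, 6.53 and 6.63 in TSR replicates 1 to 3. All TSR values lay below all controls, and the narrow arrays did not stand apart for this gene. The difference was -0.41 ± 0.10 with the block (adjusted p = 0.00954) and -0.43 ± 0.11 in the 20-array fit (adjusted p = 0.0103), and -0.34 in the 24-array fit (adjusted p = 0.0214). Hcrtr2, which keeps wakefulness stable, read 6.15, 5.91 and 5.17 in CON and 7.16, 6.98 and 6.94 in TSR, with a difference of 0.59 ± 0.21 with the block (adjusted p = 0.0508) and 0.88 ± 0.15 in the 20-array fit (adjusted p = 0.00066). Adk, which clears adenosine, a signal of sleep need, rose by 0.44 and 0.43. Gad1, the enzyme that makes GABA, rose by 0.48 and 0.32, and Lhx9, a transcription factor of orexin and other hypothalamic neurons, by 0.49 and 0.79. The call was lost for Lhx9 without any 1 of the 3 TSR arrays (up to 0.143). Homer1, a synaptic scaffold gene known to rise with time awake, read 7.95 in CON replicate 1, 6.43 and 6.62 in CON replicates 2 and 3, and 8.47, 8.43 and 8.40 in TSR replicates 1 to 3. It rose by 0.41 ± 0.11 with the block (adjusted p = 0.0112) and 0.48 ± 0.10 in the 20-array fit (adjusted p = 0.00261) and was the single gene of 15 in the list of sleep need to do so. Its TSR values lay close together above CON replicate 1. Arc and Bdnf, synaptic genes induced by activity, differed by -0.39 and -0.06 and by -0.17 and -0.07 without a call in either fit. Of 16 immediate early genes tested, 0 rose and 0 fell, and at an unadjusted p under 0.05 in both limma fits, with the same sign, the count was 2, against 24.5% of all genes tested. The 24-array fit called 2 higher and 4 lower. Fos lay under the filter at 5.38, 5.69 and 5.38 in CON and 5.40, 5.34 and 5.53 in TSR.

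In the lists of glucocorticoid-responsive and chaperone genes the share that rose was near or below the 9.23% of all genes. Of 16 glucocorticoid-responsive genes tested, 1 rose. Mt2, a metallothionein that binds zinc and copper and is induced by glucocorticoids, read 9.09 in CON replicate 1, 7.86 and 8.19 in CON replicates 2 and 3, and 9.61, 9.70 and 9.69 in TSR replicates 1 to 3. Its difference was 0.70 ± 0.19 with the block (adjusted p = 0.0147) and 0.58 ± 0.11 in the 20-array fit (adjusted p = 0.0014). Sgk1, a kinase induced by the same hormones, read 6.73, 6.26 and 6.13 in CON and 7.51, 7.64 and 7.54 in TSR, and differed by 0.46 and 0.83, with a call in the 20-array fit. Tsc22d3, the leucine zipper gene induced by glucocorticoids, differed by 0.39 and 0.60, also called in the 20-array fit. Among 20 chaperone genes of the endoplasmic reticulum, 2 rose. Canx, the calnexin gene, rose by 0.51 and 0.23, and Hspa5, the main chaperone of that compartment, differed by 0.12 and 0.14 without a call.

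Some genes of sterol synthesis and of fat oxidation rose, and no gene of either list fell in both fits. Of all genes 9.23% rose and 2.93% fell, and no test compared these shares. Of 20 genes of cholesterol synthesis and its control, 4 rose, with medians of 0.21 and 0.28. Msmo1, an enzyme of the late pathway, read 10.35 in CON replicate 1, 8.14 and 8.27 in CON replicates 2 and 3, and 10.97, 10.82 and 10.81 in TSR replicates 1 to 3, and rose by 0.56 ± 0.11 with the block (adjusted p = 0.00188) and 0.52 ± 0.10 in the 20-array fit (adjusted p = 0.00149). Idi1, which isomerizes the isoprenoid unit, rose by 0.67 and 0.65, Insig1, which holds the sterol sensor in the endoplasmic reticulum, by 0.48 and 0.39, and Stard4, a carrier of cholesterol, by 0.46 and 0.61. Cyp51, another enzyme of the pathway, differed by 0.24 and 0.67 and passed in the 20-array fit. Of 16 genes of fatty acid oxidation, 4 rose, with medians of 0.19 and 0.28. Acadm, the dehydrogenase for medium chains, read 8.23, 6.68 and 6.95 in CON and 8.83, 8.81 and 8.72 in TSR and rose by 0.61 ± 0.11 with the block (adjusted p = 0.00153) and 0.55 ± 0.12 in the 20-array fit (adjusted p = 0.00382). Etfdh, Hadha and the coactivator gene Ppargc1a rose as well, namely Etfdh (0.51, 0.43), Hadha (0.32, 0.33) and Ppargc1a (0.36, 0.34). Prkaa2, a catalytic subunit of the energy sensor AMPK, read 7.31 in CON replicate 1, 5.99 and 6.21 in CON replicates 2 and 3, and 8.19, 8.26 and 8.08 in TSR replicates 1 to 3, and rose by 0.92 ± 0.10 with the block (adjusted p = 1.9e-05) and 0.86 ± 0.10 in the 20-array fit (adjusted p = 1.27e-05). In the respiratory chain, 3 of 32 genes rose (Ndufs1 by 0.65 and 0.55, Ndufa9 by 0.60 and 0.46 and Cox6c by 0.42 and 0.35), a share near the 9.23% of all genes. Calls were lost for Etfdh without TSR replicate 1 or 2 (up to 0.0766), Hadha without CON replicate 2 or TSR replicate 1 or 2 (up to 0.175), Ppargc1a without CON replicate 3 or TSR replicate 1 or 2 (up to 0.0884) and Cox6c without CON replicate 2 or any 1 of the 3 TSR arrays (up to 0.128).

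Receptors for GABA and glutamate, which carry fast inhibition and excitation, included several genes that rose. Of 21 GABA-A and glutamate receptor genes tested, 5 rose, beside 9.23% of all genes. The medians were 0.27 and 0.25, and no test compares these shares. Gabrb2, a subunit of GABA-A receptors, read 9.75 in CON replicate 1, 8.08 and 8.38 in CON replicates 2 and 3, and 10.59, 10.45 and 10.46 in TSR replicates 1 to 3. Its difference was 0.90 ± 0.12 with the block (adjusted p = 0.000118) and 0.75 ± 0.10 in the 20-array fit (adjusted p = 5.15e-05). Gabrb1 and Gabra4, further subunits, rose as well, namely Gabrb1 (0.50, 0.44) and Gabra4 (0.44, 0.63). Gria3, an AMPA receptor subunit, rose by 0.41 and 0.43 and Grm3, a metabotropic glutamate receptor, by 0.51 and 0.67. Of 21 voltage-gated channel genes, 2 rose and 1 fell, the share that rose being near the 9.23% of all genes. Scn1a, a sodium channel, rose by 0.73 and 0.64 and Kcna1, a potassium channel, by 0.54 and 0.76. Necab1, a calcium-binding protein of neurons, rose by 0.86 and 0.77. Stmn2, which binds tubulin in growing axons, rose by 0.55 and 0.27 and was the single gene of 12 general neuronal genes to do so, while the mean of 7 neuronal markers was 10.74, 8.78 and 8.89 in CON and 10.72, 10.72 and 10.71 in TSR. CON replicate 1 and TSR were nearly level in that mean, and the narrow arrays lay below. Single arrays mattered for Gabrb1 without TSR replicate 1 or 2 (up to 0.088), Gabra4 without CON replicate 2 or TSR replicate 1 or 2 (up to 0.107), Gria3 without CON replicate 3 or TSR replicate 1 or 3 (up to 0.127) and Kcna1 without TSR replicate 2 (up to 0.0663).

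Genes of several glial and vascular lists rose, beside 9.23% of all genes that rose and 2.93% that fell, and no test compared these shares. Aqp4, the water channel of astrocyte endfeet, read 8.61 in CON replicate 1, 6.89 and 7.05 in CON replicates 2 and 3, and 9.40, 9.35 and 9.36 in TSR replicates 1 to 3. It rose by 0.63 ± 0.13 with the block (adjusted p = 0.00291) and 0.76 ± 0.10 in the 20-array fit (adjusted p = 7.17e-05), and was the single riser among 14 astrocyte genes. Of 13 oligodendrocyte genes, Ugt8a, which makes the galactolipids of myelin, rose by 0.56 and 0.66, and Aspa, which splits N-acetylaspartate, by 0.52 and 0.59. Sox10, a transcription factor of that lineage, fell, with differences of -0.51 and -0.46. In oligodendrocyte precursors, the growth factor receptor gene Pdgfra and the matrix gene Vcan rose, namely Pdgfra (0.37, 0.32) and Vcan (0.64, 0.78), and Olig2, another lineage factor, fell (-0.52 and -0.74). Olig2 read 7.39, 6.54 and 6.76 in CON and 6.68, 6.61 and 6.65 in TSR, so that TSR lay below CON replicate 1 and within the range of the narrow arrays, and its difference was -0.25 in the 24-array fit (adjusted p = 0.2). In the precursor list 3 genes were higher and 2 lower with 24 arrays, and 3 and 0 once the replicate number was a block. Of 13 vascular genes, 3 rose, and the mean of 8 vascular markers was 6.52, 6.32 and 6.36 in CON and 6.89, 6.81 and 6.79 in TSR, without overlap. Slco1a4, an organic anion transporter of the blood-brain barrier, read 7.21, 5.85 and 6.2 in CON and 8.38, 8.16 and 8.14 in TSR, and its difference was 0.96 ± 0.19 with the block (adjusted p = 0.00235) and 1.02 ± 0.21 in the 20-array fit (adjusted p = 0.00271). Acta2, the actin of smooth muscle, read 6.03, 6.03 and 6.26 in CON and 6.82, 6.58 and 6.67 in TSR, with the 3 control arrays close together, and rose by 0.61 and 0.66. Rgs5, a pericyte gene, rose by 0.45 and 0.52, and Dcn, a matrix proteoglycan of the meninges, by 0.59 and 0.83. Of 9 tanycyte and ependymal genes, 2 rose. Gpr50, an orphan relative of the melatonin receptors found in tanycytes, read 6.89 in CON replicate 1, 5.63 and 5.36 in CON replicates 2 and 3, and 8.22, 7.79 and 7.87 in TSR replicates 1 to 3. Its difference was 1.15 ± 0.16 with the block (adjusted p = 0.000162) and 1.07 ± 0.17 in the 20-array fit (adjusted p = 0.000418). Scn7a, a sodium sensor of glia, rose by 0.65 and 0.76. Of 9 microglial genes, 0 passed in both limma fits, and 0 at an unadjusted p under 0.05, against 12.2% and 24.5% of all genes. Leaving out an array cost the call of Ugt8a without TSR replicate 1 or 2 (up to 0.0692), Aspa without TSR replicate 1 (up to 0.076), Sox10 without CON replicate 3 or any 1 of the 3 TSR arrays (up to 0.0997), Pdgfra without TSR replicate 1 (up to 0.0574), Rgs5 without CON replicate 2 or TSR replicate 1 (up to 0.119), Dcn without TSR replicate 1 or 2 (up to 0.117) and Scn7a without TSR replicate 1 (up to 0.0856).

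Falls were fewer, with 2.93% of all genes against 9.23% that rose, and several of the largest were in loci without a described function. The transcript AY036118 read 10.37 in CON replicate 1, 11.27 and 11.68 in CON replicates 2 and 3, and 8.40, 7.88 and 7.97 in TSR replicates 1 to 3. All TSR values lay far below all controls, and the difference was -1.64 ± 0.30 with the block (adjusted p = 0.00153) and -2.29 ± 0.20 in the 20-array fit (adjusted p = 3.87e-07). A 5S ribosomal RNA gene, n-R5s136, read 9.60 in CON replicate 1, 9.20 and 9.01 in CON replicates 2 and 3, and 7.89, 8.04 and 7.96 in TSR replicates 1 to 3, and here CON replicate 1 was the highest control. Its difference was -1.11 ± 0.20 with the block (adjusted p = 0.00147) and -1.64 ± 0.11 in the 20-array fit (adjusted p = 2.27e-08), and in the 20-array fit it was also lower in TSR at ZT1, ZT7 and ZT13, with differences of -2.23, -1.31 and -1.82. Of 7 tested genes of 5S ribosomal, vault, Y and related short RNAs, 3 fell (n-R5s136, Rpph1 and Rmrp, the latter pair with TSR between CON replicate 1 and the narrow arrays and a positive sign with 24 arrays), with medians of -0.65 and -0.67. Of 25 genes of ribosomal proteins, 2 fell, among them Rplp2 of the ribosomal stalk, with differences of -0.43 and -0.47 and an overlap of the groups after quantile normalization. Tnfrsf18, a costimulatory receptor of T cells, read 6.87 in CON replicate 1, 10.36 and 10.10 in CON replicates 2 and 3, and 6.0, 5.94 and 5.83 in TSR replicates 1 to 3, and its difference was -0.87 ± 0.11 with the block (adjusted p = 4.63e-05) and -0.95 ± 0.12 in the 20-array fit (adjusted p = 3.84e-05). The narrow arrays exceeded the usual ones for this gene at ZT1 and ZT13 as well, by 3.50 and 3.58. H2-M10.2, a nonclassical class I gene of the major histocompatibility complex, fell, with differences of -0.76 and -1.13. The loci A230072E10Rik and Gm10644 fell too, namely A230072E10Rik (-0.75, -1.09) and Gm10644 (-0.72, -1.09). Alas2, the first enzyme of haem synthesis in red cell precursors, read 6.86 in CON replicate 1, 9.18 and 8.59 in CON replicates 2 and 3, and 6.21, 6.09 and 6.14 in TSR replicates 1 to 3 and fell, with a difference of -0.68 ± 0.15 with the block (adjusted p = 0.00573) and -0.71 ± 0.16 in the 20-array fit (adjusted p = 0.00445). Bpgm, an enzyme that sets the oxygen affinity of red cells, was the other of 2 red cell genes tested and had the opposite sign. It read 7.29, 6.23 and 6.45 in CON and 7.61, 7.57 and 7.37 in TSR, with differences of 0.08 and 0.22 and a call in the 24-array fit (0.86, adjusted p = 0.0386 in limma). The call was sensitive to single arrays for H2-M10.2 without TSR replicate 1 or 2 (up to 0.112) and Rplp2 without TSR replicate 1 or 3 (up to 0.0727).

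Of 81 miRNA genes tested, 1 rose and 2 fell, beside 9.23% and 2.93% of all genes. The share that rose was below that of all genes, and the share that fell was near it. A probe set named for a miRNA gene does not tell the mature arms apart, so both arms are printed from RefSeq (build GRCm38.p6), 5′ to 3′, with the seed (bases 2 to 8) in capitals. They are shown because the seed is the stretch by which an arm pairs with its targets.
mmu-miR-25-3p: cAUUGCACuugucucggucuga
mmu-miR-25-5p: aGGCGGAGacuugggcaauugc
mmu-miR-99b-5p: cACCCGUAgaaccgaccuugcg
mmu-miR-99b-3p: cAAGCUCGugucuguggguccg
mmu-miR-325-3p: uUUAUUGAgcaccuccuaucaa
mmu-miR-325-5p: cCUAGUAGgugcucaguaagugu
No 2 of the 6 seeds are alike. Mir25 read 6.95 in CON replicate 1, 7.73 and 7.49 in CON replicates 2 and 3, and 5.67, 6.2 and 6.15 in TSR replicates 1 to 3, and its difference was -0.65 ± 0.19 with the block (adjusted p = 0.0218) and -0.94 ± 0.21 in the 20-array fit (adjusted p = 0.00409). All TSR values lay below all controls. Mir99b read 6.60, 7.14 and 7.10 in CON and 6.02, 5.98 and 6.12 in TSR and fell, also without overlap, with differences of -0.40 and -0.56. Mir325 read 5.60, 5.94 and 6.25 in CON and 6.82, 6.49 and 6.22 in TSR, where TSR replicate 3 lay within the control range, and its differences were 0.72 and 0.91. Calls were lost for Mir25 without TSR replicate 1 (up to 0.117), Mir99b without TSR replicate 1 or 2 (up to 0.0955) and Mir325 without CON replicate 2 or TSR replicate 1 or 2 (up to 0.167).

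The test of whether the difference at ZT19 departed from the mean difference at ZT1, ZT7 and ZT13 passed in 8017 genes (67%) with all 24 arrays, in 13 (0.109%) with the block and in 65 (0.543%) with 20 arrays. The first of these counts fell to 2 without CON replicate 2, CON replicate 3 or TSR replicate 1 and was 4720 without TSR replicate 2. The 13 genes of the block fit passed in all 3 fits, and in each the value was higher at ZT19. Meis2 had the largest of these departures in the 20-array fit, 1.15 (adjusted p = 0.0146) with the block and 1.52 (adjusted p = 6.33e-06) in the 20-array fit. In the 20-array fit it was -0.88 at ZT1, 2.09 at ZT7, 0.14 at ZT13 and 1.97 at ZT19, so ZT7 and ZT19 resembled each other and ZT1 had the opposite sign. Vipr2 and Prokr2 were called lower in TSR at ZT7 and ZT13 in the 20-array fit and not lower at ZT19. For Vipr2 the 20-array differences at ZT1, ZT7, ZT13 and ZT19 were -0.20, -1.23, -1.32 and 0.33, and the departure was 1.42 (adjusted p = 0.000674) with the block and 1.25 (adjusted p = 0.00103) in the 20-array fit. For Prokr2 they were 0.01, -0.60, -1.16 and 0.49, and the departure was 1.04 (adjusted p = 0.00549) with the block and 1.08 (adjusted p = 0.00496) in the 20-array fit. Genes known from ciliated cells were among the 13. Stoml3, a stomatin-like protein of cilia, had -0.63, -1.22, -1.30 and 0.26, with a departure of 1.68 (adjusted p = 0.00108) with the block and 1.31 (adjusted p = 0.00206) in the 20-array fit. Ak7, an adenylate kinase of motile cilia, had -0.06, -1.11, -0.78 and 0.53, with a departure of 1.29 (adjusted p = 0.00208) with the block and 1.18 (adjusted p = 0.00496) in the 20-array fit. The block and 20-array fits called Ak7 higher at ZT19, a call lost without TSR replicate 1 or 2. Over the 16 motile cilium genes tested, which did not include Ak7, 1 rose at ZT19, beside 9.23% of all genes. Rasd1, a Ras-like protein induced by glucocorticoids and active in the suprachiasmatic nucleus, had 20-array differences of -0.81 at ZT7, -1.06 at ZT13 and 0.09 at ZT19. Prkaa2, the ion exchanger gene Slc24a4 and the kinase gene Prkch rose at ZT19 itself, namely Prkaa2 (0.92, 0.86), Slc24a4 (0.65, 0.78) and Prkch (0.83, 0.78), while their 20-array differences at the other times lay between -0.54 and 0.36.

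**Figure D5:**
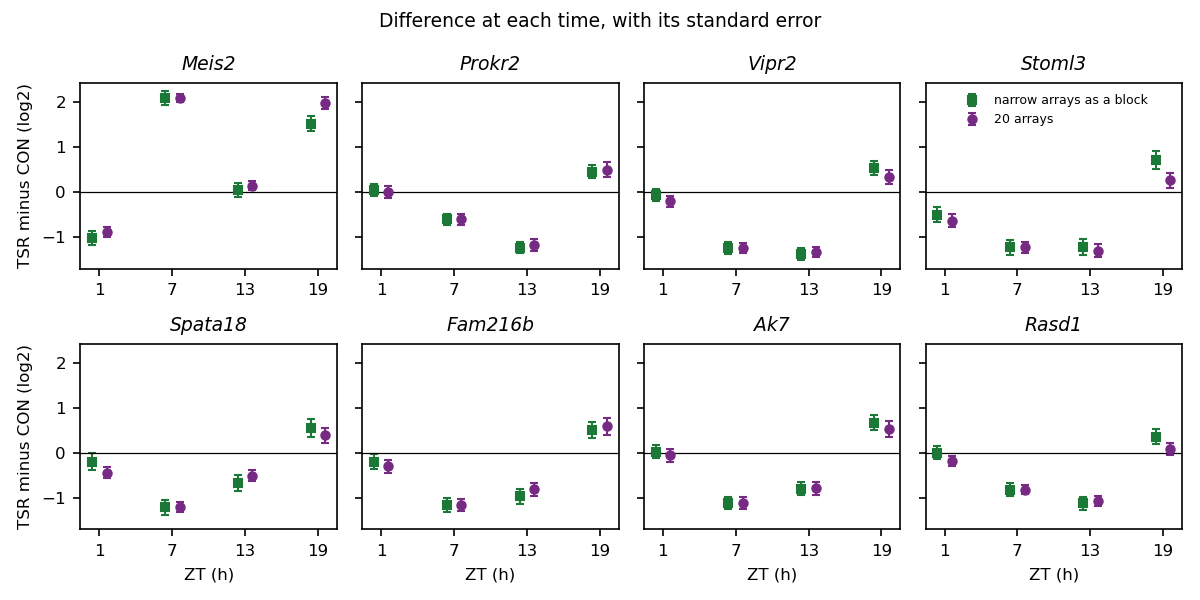
TSR minus CON difference at ZT1, ZT7, ZT13 and ZT19 of 8 genes, in log2 units, with the moderated standard error; squares are the block fit and circles the 20-array fit. Apart from Meis2, which is high at ZT7 and ZT19, the genes lie below 0 at ZT7 and ZT13 and at or above 0 at ZT19.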

How the data were processed

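Per the labels' protocols, RNA was prepared with Trizol and then labelled (GeneChip WT Terminal Labeling Kit). The authors deposited log2 probe-set signals of 35556 probe sets on 24 arrays, made with Affymetrix Expression Console per the submitters' processing notes; version and summarization method: not given in the sources used here. Misplaced decimal points were put back in 2657 of 853344 cells (0.311%; 155 in the 6 arrays and genes used), and 57 cells with lost digits were treated as missing. The step was tested on simulated shifts. Probe sets with 1 symbol (21789; 1621 had several and 12146 none) were kept, 1 per gene by the highest mean, and genes under the 40th percentile (5.84 log2 units) were removed. Of 11963 genes left, 11935 matched the RefSeq table of GRCm38.p6 by Entrez number with the same symbol; the platform's gene names can be old.

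Group means were fitted with limma 3.58.1 (R 4.3.3) with a trend, 2-sided, and Benjamini-Hochberg adjustment over all genes tested. An array was called narrow at an interquartile range under 2.5. The 20-array fit takes the spread of its single control at ZT19 from the other groups. Deviations of same-numbered TSR and CON arrays at ZT19 correlated at 0.39, 0.17 and 0.27. Those of differently numbered arrays ran from -0.39 to 0.34, the highest for TSR replicate 3 with CON replicate 2. The number therefore did not single out a pairing. The replicate block was also fitted, and the labels do not say what the number marks.

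Genes were named from the 10 largest differences in each direction without overlap in either scaling, the 10 largest in each direction past the threshold with 24 arrays, up to 6 such members and all passing members of each list, the 8 smallest p-values between times and a set of clock, feeding and stress genes. Apoa1, Bag3, Camk2a, Kcnmb1, Mir325, Mir99b, Olig2, Pltp, Prkaa2, Prkch, Rplp2, Slc24a4 and Tac2 fall outside it and were picked with their values known. Rpph1, Rmrp, Magel2, Dlk1 and Dlx2 fall outside it too and were named because they fell. Nr5a1, Fgb, Fgg and Ahsg were named as markers under the filter. The members and lists were chosen with earlier results of these data known. The 38 lists were described by counts and medians only. Microarray precision is limited by the 3 arrays in a group.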

Additional observations from a re-analysis of the deposited data

Results flagged for a closer look

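Of the genes named, 13 differed between ZT19 and the mean of the other times by the test of that difference in the 24-array, block and 20-array fits. Their departures in the 20-array fit, in log2 units and positive where the TSR minus CON difference was higher at ZT19, were 1.52 for Meis2, 1.35 for Fam216b, 1.31 for Stoml3, 1.25 for Vipr2, 1.18 for Ak7, 1.15 for Kcnmb1, 1.11 for Spata18, 1.08 for Prokr2, 0.85 for Prkch, 0.80 for Slc24a4, 0.78 for Rasd1, 0.76 for Prkaa2 and 0.47 for Pltp. Apart from the spread within each array, by which 4 arrays were called narrow, groups of 3 arrays were not screened for outlying samples.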

How the results depend on the processing

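The call of genes with all 24 arrays depended on the narrow arrays. The 6625 genes became 10020 with limma array weights, 2947 with 20 arrays, 2005 with the narrow arrays as a block and 4 with only the 6 arrays of ZT19, and leaving out an array at a time gave 1 to 9343. The 8017 genes that differed between times became 12030 with no filter, 65 with 20 arrays and 13 with the block, with 2 to 9571 over the leave-outs. The 6790 genes without overlap became 10586 with no filter, with 7009 to 10723 over the leave-outs, where fewer arrays are left to overlap. The counts with no filter are out of all 19938 genes measured rather than 11963, so a larger count is not a larger share. The replicate block, which pairs arrays of the same number, gave 6656 and 8002 genes. Among the 117 genes looked up and the lists described, it changed the call of Apoa1 and the count of the oligodendrocyte precursor list. Leave-outs from the block and 20-array fits were chosen after seeing the data and gave 826 to 2170 genes in the block fit, 1954 to 2947 in the 20-array fit and 661 to 1621 in both, the lowest each time without TSR replicate 1. Without CON replicate 1 the 20-array fit has no control at ZT19 and could not be run.

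The difference turned sign with a further quantile normalization in Per1 (-0.12), Dbp (-0.10), Npy (-0.017) and Sst (-0.017). The difference turned sign with arrays scaled to one median absolute deviation in Nr1d1 (-0.057), Sst (-1.56) and Trh (-0.044). The difference turned sign with array weights in Cartpt (0.056). The difference turned sign with 20 arrays in Per1 (-0.12), Dbp (-0.36), Tef (-0.33), Npy (-0.12), Gal (-0.54), Tac2 (-0.90), Sst (-0.22), Trh (-0.34), Pltp (-0.13) and Camk2a (-0.65). The difference turned sign with the narrow arrays as a block in Per1 (-0.25), Nr1d1 (-0.075), Dbp (-0.041), Tef (-0.33), Npy (-0.044), Gal (-0.27), Tac2 (-0.53), Sst (-0.34), Trh (-0.44) and Camk2a (-0.39). Over the leave-outs Npy ran from -0.080 to 0.22. The causes were not tested. Alternatives that kept the sign of all genes named here were no trend, another choice of probe set, shifted cells set to missing, decimals as deposited, the replicate block, 22 arrays and only the 6 arrays. Signal over background limits weakly expressed genes such as Pomc, Hcrt and Crh, which were not tested.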

Other observations

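The counts of further lists stand beside the 9.23% of all genes that rose and the 2.93% that fell in the block and 20-array fits, and no test compared them. Of 13 genes in a list of mainly imprinted hypothalamic genes, 1 rose (Necab1, which is not an established imprinted gene) and 2 fell (Magel2 and Dlk1, whose groups overlapped). Of 10 genes of GABA neurons and their Dlx factors, 1 rose (Gad1) and 1 fell (Dlx2, whose groups overlapped). In the list of the paraventricular and supraoptic nuclei, with 11 genes, 1 rose and 3 fell (Trh, Otp and Magel2). Bag3, a partner of the heat shock protein Hsp70, read 6.49, 6.71 and 5.87 in CON and 6.13, 5.88 and 6.10 in TSR, and its differences were -0.54 and -0.45. It was the 1 gene of 16 in the list of heat shock genes to pass both fits, and its groups overlapped. The call was lost for Bag3 without CON replicate 2 or any 1 of the 3 TSR arrays (up to 0.124), these being adjusted p-values of limma. Interferon, inflammation and meningeal genes had 1 rise each, out of 4, 5 and 5 tested. Neither of the 2 pituitary genes tested passed in both the block and the 20-array limma fit, at an unadjusted p under 0.05 either. The 24-array limma fit called 1 of them lower. The mean of 6 pituitary markers was 4.77, 6.03 and 5.61 in CON and 4.57, 4.85 and 4.81 in TSR.

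Of the 13 genes that departed at ZT19 from the other times, Spata18, which acts in mitochondrial quality control, had 20-array differences of -0.44 at ZT1, -1.21 at ZT7, -0.51 at ZT13 and 0.39 at ZT19. Fam216b had -0.30, -1.15, -0.81 and 0.59. Both therefore had the order seen in Stoml3 and Ak7, lower in TSR at ZT7 and ZT13 and not at ZT19. Pltp, a phospholipid transfer protein, had -0.03, -0.74, -1.04 and -0.13. Kcnmb1, a subunit of calcium-gated potassium channels, had -0.04, -1.12, -0.66 and 0.54.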
